A study of Mus musculus with 4 samples.

Results

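Non-dividing Kupffer cells (KCs), the resident macrophages of the liver, were compared between the livers of 4 mice by single-cell RNA sequencing. The cells were chosen by their measured UMIs (unique molecular identifiers, 1 per captured RNA molecule): barcodes with 500 to 6000 detected genes and at most 10% of UMIs from mt- genes, in which 7 KC genes (Clec4f, Vsig4, Cd5l, Timd4, C1qa, Folr2 and Marco) summed to at least 0.8% of UMIs. Cells were left out where 9 endothelial cell (EC) genes (Pecam1, Kdr, Stab2, Clec4g, Ptprb, Cdh5, Egfl7, Oit3 and Dnase1l3) summed to 0.3% or more, or where the division genes Mki67 and Top2a together had more than 1 UMI. By this rule 2922 of 30362 kept cells were KCs, 562 in WT, 563 in YAPKO, 1058 in TAZKO and 739 in DKO.

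The study asked what loss of the transcriptional coactivators YAP (gene Yap1) and TAZ (gene Wwtr1) in the liver epithelium does to liver cells, among them ECs and KCs, and to signals between them. YAPKO, TAZKO and DKO mice carried Alb-Cre with floxed Yap1, floxed Wwtr1 or both, which deletes the genes in hepatocytes (HCs) and biliary epithelial cells (BECs), and WT mice were labelled wildtype. Each group was 1 mouse, given no treatment, with liver cells isolated by a 2-step digestion, HCs and non-parenchymal cells mixed before loading, and 10x Genomics 3' v3.1 libraries made. Strain and age of the sequenced mice are not given in the sources used. Alb-Cre directs the deletion to HCs and BECs and not to KCs, whose alleles were not tested here, and the comparisons show how KCs differed in livers whose epithelium was to lack YAP, TAZ or both. With 1 library a group there was no test between groups, a difference between genotypes cannot be told apart from a difference between mice or libraries, and every interval covers counting error only.

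KCs line the liver sinusoids, where they take up bacteria, lipoproteins, cell debris and aged red blood cells and recycle iron from heme. Their identity is kept by signals from neighbouring ECs, stellate cells (HSCs) and HCs, acting through factors such as LXR alpha (Nr1h3), Spic and Id3. Macrophages that take up lipid and debris in injured tissue are known for Trem2, Gpnmb, Cd9, Fabp5, Spp1 and Mmp12, and monocytes that enter the liver for Ccr2, Ly6c2 and S100a genes.

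The matrices held 66259687 UMIs in WT, 85989454 in YAPKO, 49022089 in TAZKO and 77411746 in DKO. Median UMIs of a KC were 10386.5 in WT, 16485 in YAPKO, 5141 in TAZKO and 9877 in DKO, with medians of 3253.5, 4016, 2270.0 and 3113 genes. TAZKO was thus the shallowest library and YAPKO the deepest. Summed over KCs, 5885322 UMIs were available in WT, 8759126 in YAPKO, 5891881 in TAZKO and 7380054 in DKO. The median mt- share of a KC lay between 0.871% and 0.956% in the 4 libraries. Levels are given as CPM, the UMIs of a gene summed over KCs and scaled to the same total in each library, with exact Poisson 95% intervals, and ratios between libraries as log2 with exact conditional binomial 95% intervals. A gene was tested with at least 200 UMIs over the 4 libraries and called higher or lower past 2-fold, without regard to its interval.

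The genes of the rule describe the cells and support nothing. Clec4f, a lectin found in the liver only on KCs, stood at 6877 CPM in WT, 7484 in YAPKO, 5264 in TAZKO and 4538 in DKO, and in B cells of the same libraries at 36.1 CPM in WT, 27.6 in YAPKO, 45.5 in TAZKO and 17.5 in DKO. Vsig4, a complement receptor, stood at 2371 CPM in WT, 2832 in YAPKO, 2740.0 in TAZKO and 2105 in DKO. Cd5l, a secreted scavenger protein of tissue macrophages, stood at 5864 CPM in WT, 5918 in YAPKO, 7932 in TAZKO and 4722 in DKO. The rule itself asks for a high sum of these genes in every library. Timd4, which binds phosphatidylserine on dying cells and marks long-resident KCs, stood at 514 CPM in WT, 540.4 in YAPKO, 504 in TAZKO and 336 in DKO. Marco, a scavenger receptor for bacteria, stood at 886 CPM in WT, 1263 in YAPKO, 298 in TAZKO and 763 in DKO, lowest in TAZKO. C1qa stood at 6214 CPM in WT, 7151 in YAPKO, 5084 in TAZKO and 6831 in DKO and Folr2 at 1398 CPM in WT, 1694 in YAPKO, 1322 in TAZKO and 998 in DKO. C1qa is a chain of complement C1q, and Folr2 a folate receptor. The 7 genes summed to a median of 2.40%, 2.69%, 2.31% and 2.09% of a KC's UMIs in WT, YAPKO, TAZKO and DKO, and the 9 EC genes to 0.0713%, 0.0686%, 0.0996% and 0.0608%. The EC genes summed to 809 CPM in WT, 736 in YAPKO, 1054 in TAZKO and 708 in DKO, most of it Cdh5 (465 CPM in WT, 478 in YAPKO, 784 in TAZKO and 390.0 in DKO), which in B cells stood at 4.01 CPM in WT, 2.5 in YAPKO, 6.21 in TAZKO and 8.16 in DKO.

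Near the limit of the KC genes the cells were few. Between 0.8% and 1.0% lay 18 KCs in WT, 28 in YAPKO, 25 in TAZKO and 66 in DKO, and between 0.6% and 0.8%, just outside, 12, 50, 21 and 65 cells. The monocyte receptor Ccr2 stood at 120 CPM in WT, 132 in YAPKO, 198 in TAZKO and 92.2 in DKO just inside, and at 348, 236, 400 and 175 just outside. Ccr2 was thus higher just outside the limit in each library, in few cells, and the share of KCs beside this limit was largest in DKO. Near the EC limit, 15, 5, 91 and 19 KCs lay between 0.2% and 0.3% and 11, 12, 32 and 13 cells between 0.3% and 0.4%. Igfbp7, an EC gene that the rule did not use, stood at 498, 473, 163 and 696 CPM just inside and at 842, 657, 332 and 906 CPM just outside.

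**Figure D1:**
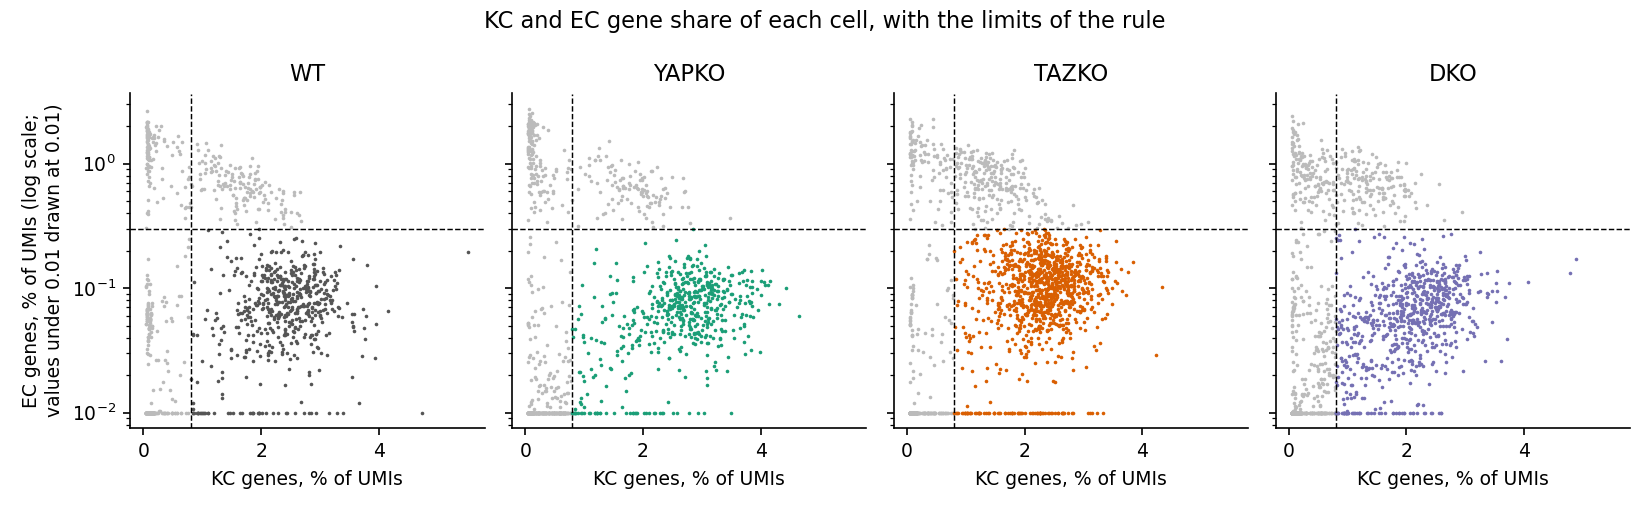
Share of UMIs from the 7 KC genes against the share from the 9 EC genes (log axis, values under 0.01% drawn at 0.01%) in the kept non-dividing cells of each library with at least 0.05% KC genes, 1 point a cell, with the limits of the rule dashed. The lower right corner holds the KCs, 562 in WT, 563 in YAPKO, 1058 in TAZKO and 739 in DKO.

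KCs made up 7.85% (7.24 to 8.50, exact binomial) of kept cells in WT, 8.97% (8.28 to 9.71) in YAPKO, 12.2% (11.6 to 13) in TAZKO and 8.91% (8.31 to 9.54) in DKO, shares that depend on how HCs and other cells were mixed. Of the cells past the KC limit, 155 of 802 in WT, 120 of 756 in YAPKO, 239 of 1328 in TAZKO and 164 of 931 in DKO were left out for EC genes, which leaves 643 KCs with EC RNA once dividing cells are set apart. Dividing KCs numbered 85 in WT, 73 in YAPKO, 31 in TAZKO and 28 in DKO. Shared barcodes were rare: 3 KC barcodes occurred in more than 1 library.

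All 21 KC and macrophage identity genes outside the rule were tested. Against WT 0 passed 2-fold in YAPKO, 1 was higher and 1 lower in TAZKO, and 1 was lower in DKO. In DKO against TAZKO 1 was higher and 4 lower. Adgre1, the gene of F4/80, stood at 713 CPM in WT, 689.8 in YAPKO, 927 in TAZKO and 523 in DKO, and Csf1r, the receptor for the macrophage growth factor CSF1, at 1431 CPM in WT, 1561 in YAPKO, 1897 in TAZKO and 1481 in DKO. Nr1h3, which encodes LXR alpha, stood at 457 CPM in WT, 522 in YAPKO, 949 in TAZKO and 481 in DKO, highest in TAZKO. These genes were thus present at high level in every library. Cd163, the receptor that takes up haptoglobin with hemoglobin, stood at 941 CPM in WT, 706 in YAPKO, 746 in TAZKO and 304 in DKO and was lowest in DKO, with a log2 ratio to WT of -1.63 (-1.70 to -1.56).

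RNA of other cells was present in the KCs at levels that differed between libraries. The 18 HC genes listed summed to 7455 CPM in WT, 2675 in YAPKO, 7015 in TAZKO and 4942 in DKO, led by Mup20 in WT (2024 CPM) and by Alb in TAZKO (1876 CPM), with none at 0. In B cells, which do not make them, the same genes summed to 21370.4 CPM, 7881, 17092 and 13920.5, so that HC genes in KCs stood below B cells in every library. Monocyte genes (8, 4 tested) summed to 775 CPM, 738, 588 and 222, with Plac8 the largest in WT, YAPKO and TAZKO (697 CPM in WT, 639 in YAPKO, 519 in TAZKO and 79.7 in DKO), Cx3cr1 the largest in DKO (83.3 CPM), and Ccr2 at 17 CPM in WT, 16.9 in YAPKO, 8.83 in TAZKO and 21.3 in DKO. Neutrophil genes (5, 3 tested) summed to 487 CPM in WT and 107 in YAPKO, 130 in TAZKO and 175 in DKO, with S100a9 at 237 CPM in WT, 45.8 in YAPKO, 27 in TAZKO and 32.5 in DKO. B-cell genes summed to 60.5, 50.9, 50.1 and 44.3 CPM and T-cell genes to 8.67, 14, 21.4 and 25.5 CPM, so B-cell and T-cell RNA was scarce in the KCs. Of 6 genes of natural killer (NK) cells 1 was tested. It had log2 ratios to WT of 1.44 in YAPKO, 2.13 in TAZKO and 3.33 in DKO. The part of such RNA in any difference was not tested. All 4 libraries carried Y-linked RNA (Ddx3y 89.7 CPM in WT, 76.4 in YAPKO, 169 in TAZKO and 81.7 in DKO), and Xist had 0 UMIs in WT, YAPKO and DKO and 1 in TAZKO.

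TAZKO stood apart from the other libraries before any gene was singled out. Across the 8706 tested genes with a known transcript length, split into 4 groups by length, the median log2 ratio of TAZKO to WT rose from -0.24 for the shortest to 0.23, 0.37 and 0.45 for the longest, and that of DKO to TAZKO fell from 0.26 to -0.18, -0.31 and -0.43. B cells showed a like slope: -0.22, 0.07, 0.31 and 0.54 for TAZKO to WT and 0.22, 0.04, -0.11 and -0.23 for DKO to TAZKO. In KCs YAPKO to WT ran from 0.03 to -0.11 and DKO to WT from 0.04 to 0.01. In B cells YAPKO to WT ran from 0.05 to 0.01, while DKO to WT rose from 0.00 to 0.09, 0.19 and 0.28, so a slope with length was also present there without TAZKO. Ribosomal protein genes, which are short, held 11% of KC UMIs in WT, 11.6% in YAPKO, 8.30% in TAZKO and 11.9% in DKO. The median log2 ratio over all 8709 tested genes was 0.26 for TAZKO to WT and -0.20 for DKO to TAZKO, against -0.04 for YAPKO to WT and 0.03 for DKO to WT, and changes with TAZKO are best read relative to these. With ratios centred by group of transcript length, an alternative chosen after seeing the data, 183 of 474 genes higher and 172 of 247 lower in TAZKO than WT were still called, and 200 of 314 higher and 266 of 655 lower in DKO than TAZKO. This centring takes out the all-gene shift along with the slope. Median-of-ratios scaling, a shift alike for all genes, left 216 of the 474 and 342 of the 655 but all of the 247 and the 314. Whether centring and this scaling lost the same genes was not tested. For YAPKO to WT 46 of 47 and 171 of 181 were still called with centring.

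**Figure D2:**
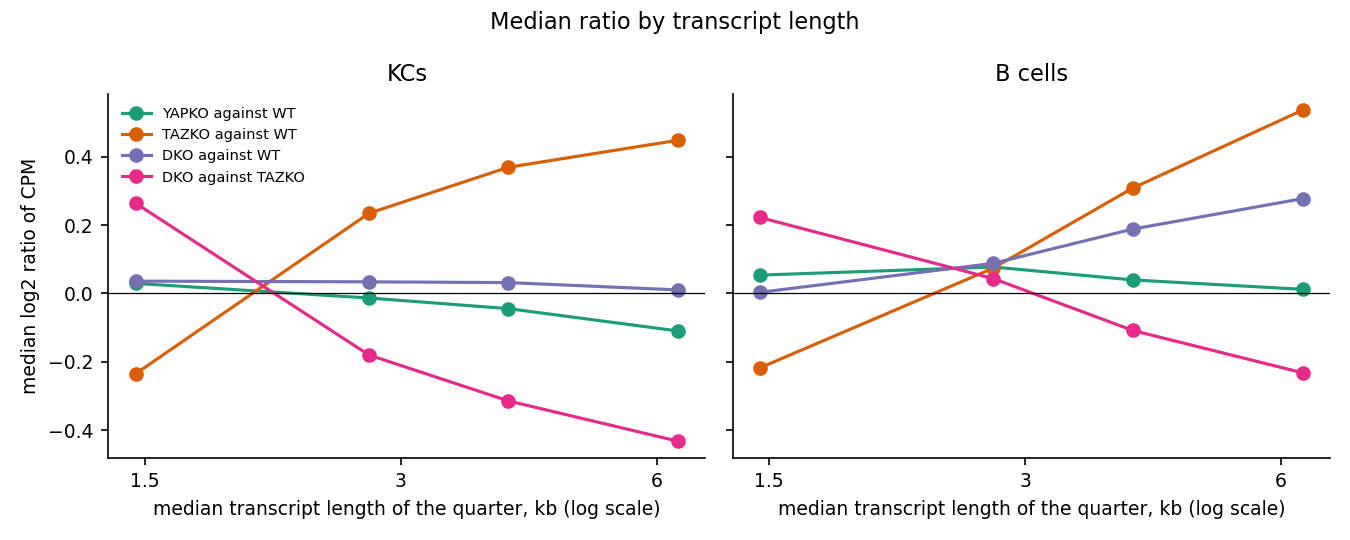
Median log2 ratio of the tested genes by group of transcript length (4 groups), in KCs and in B cells, for the 4 comparisons. The comparisons with TAZKO slope in both cell types (KCs, TAZKO to WT, -0.24 to 0.45), while YAPKO to WT and DKO to WT stay between -0.11 and 0.04 in KCs and DKO to WT reaches 0.28 in B cells.

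Some genes were at or near 0 in whole libraries. In KCs 13 genes had at most 3 UMIs in 1 library and at least 100 in another, and for 8 of them TAZKO was a library with at most 3, against 4 for WT, 1 for YAPKO and 3 for DKO. Among them were copies of ribosomal protein genes: Rps3a3 stood at 0.170 CPM in WT, 0.457 in YAPKO, 732 in TAZKO and 1153 in DKO, and the related Rps3a1 at 1275 CPM in WT, 1435 in YAPKO, 106 in TAZKO and 119.8 in DKO. Summed, both came to 1275 CPM in WT, 1435 in YAPKO, 838 in TAZKO and 1273 in DKO, so the RNA of this pair differed less than either gene name. The pseudogene Rps15a-ps8 split the libraries likewise, at 0.510 CPM in WT, 0.913 in YAPKO, 83.7 in TAZKO and 283 in DKO. Whether such genes differ by expression, sequence or how reads were assigned was not tested.

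The comparison of YAPKO with WT shows how KCs differed in livers whose HCs and BECs lacked YAP. Gpnmb, Mmp12 and Cd63, of the lipid-associated macrophage genes, came first by their intervals among the genes that were higher, followed by the pseudogene Gpr137b-ps, the HC gene Mup9 and Ms4a7, and Trem2 was also higher. Gpnmb had 1 UMI in WT against 223 in YAPKO, which came from 8 of 563 cells, and with KC genes at 1.6% WT and YAPKO together had 5. Slpi, the HC genes Mup11, Mup21 and Mup7 and the chaperone genes Hspa1b and Hspa1a came first among those that were lower. None of the identity, complement, iron or lysosome genes of KCs passed 2-fold. Of 8709 genes, 47 (0.54%) were higher and 181 (2.08%) lower, and the interval lay wholly past 2-fold for 21 and 107.

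Mmp12, the macrophage elastase, stood at 8.84 CPM (6.6 to 11.6) in WT, 94.4 (88.1 to 101) in YAPKO, 10.4 (7.92 to 13.3) in TAZKO and 368 (354 to 382) in DKO, a log2 ratio of YAPKO to WT of 3.42 (3.01 to 3.85). Cd63, a tetraspanin of late endosomes and lysosomes, stood at 11.6 CPM (8.97 to 14.6) in WT, 84.6 (78.6 to 90.9) in YAPKO, 6.11 (4.28 to 8.46) in TAZKO and 218 (208 to 229) in DKO, with a ratio of 2.87 (2.51 to 3.25). For both genes YAPKO and DKO were high, with intervals above those of WT and TAZKO. Gpnmb, a membrane glycoprotein of lysosomes and melanosomes, stood at 0.170 CPM (0.00430 to 0.947) in WT, 25.5 (22.2 to 29) in YAPKO, 0.340 (0.0411 to 1.23) in TAZKO and 47.6 (42.7 to 52.8) in DKO, and its log2 ratio of 7.23 (4.73 to 12.54) rests on 1 UMI in WT. Ms4a7, a membrane protein of macrophages, stood at 26.7 CPM in WT, 89.96 in YAPKO, 23.9 in TAZKO and 119 in DKO, with a ratio of 1.75. Trem2, a receptor for lipids and lipoproteins, stood at 28 CPM (23.9 to 32.7) in WT, 87.6 (81.5 to 94) in YAPKO, 24.9 (21.1 to 29.3) in TAZKO and 122 (115 to 131) in DKO, with a ratio of 1.64 (1.40 to 1.89). Of the lipid-associated list, 7 of 10 genes were tested, 4 were higher and 0 lower in YAPKO, with a median of 1.64 against -0.04 over all genes. Spp1, Itgax and Atp6v0d2 had too few UMIs. With KC genes required at 1.6% of UMIs, which leaves out the cells poorest in them, the median was 0.90 over the 6 genes of the list tested there and Ms4a7 at 0.90 was no longer called. Gpnmb, at 5 UMIs in WT and YAPKO together, had too few for that median and stood at 1.44. With cells thinned to 2000 UMIs Gpnmb had 0 UMIs in WT and 23 in YAPKO, a ratio of at least 2.89 against the floor of 3 counts.

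The other genes named as higher by their intervals were Gpr137b-ps, a pseudogene, at 1.36 CPM in WT, 15.2 in YAPKO, 21.7 in TAZKO and 23.2 in DKO, and Mup9, a major urinary protein gene of HCs, at 3.74 CPM in WT, 24.5 in YAPKO, 60.9 in TAZKO and 0.949 in DKO, which in B cells stood at 7.36 CPM in WT, 153 in YAPKO, 170.3 in TAZKO and 2.33 in DKO. Both were more abundant in YAPKO and TAZKO than in WT, and Mup9 followed its level in B cells. Gpr137b-ps was lowest in WT in B cells too, at 4.01 CPM in WT, 10.0 in YAPKO, 23.8 in TAZKO and 16.3 in DKO.

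First among the lower genes by its interval was Slpi, a secreted inhibitor of neutrophil proteases, at 77.3 CPM in WT, 2.74 in YAPKO, 28 in TAZKO and 2.03 in DKO, with a log2 ratio of -4.82 (-5.48 to -4.23). That difference rests on few cells: after thinning, 5 WT cells held its 115 UMIs, 70 of them in 1 cell, and with KC genes at 1.6% the ratio was -2.20. Mup11 stood at 223 CPM in WT, 10.2 in YAPKO, 1.19 in TAZKO and 0.813 in DKO, Mup21 at 90.6 CPM in WT, 6.05 in YAPKO, 22.7 in TAZKO and 9.76 in DKO and Mup7 at 34.8 CPM in WT, 2.17 in YAPKO, 7.47 in TAZKO and 1.22 in DKO, all urinary protein genes of HCs. In B cells Mup11 stood at 855 CPM in WT, 48.2 in YAPKO, 0.517 in TAZKO and 3.5 in DKO, so its fall was not confined to KCs. Of the 18 HC genes 13 were lower and 1 higher, with a median of -1.49. Hspa1b, which encodes the inducible chaperone HSP70, stood at 263 CPM in WT, 21.1 in YAPKO, 158 in TAZKO and 64.6 in DKO, a ratio of -3.64 (-3.87 to -3.42), and Hspa1a at 167 CPM in WT, 13.7 in YAPKO, 81.8 in TAZKO and 49.9 in DKO. In B cells Hspa1b stood at 412 CPM in WT, 13.8 in YAPKO, 162 in TAZKO and 71.1 in DKO, with the same order of libraries. With genes left out whose level in B cells reached that in KCs (an alternative chosen after seeing the data), 29 genes were higher and 65 lower, so most of the genes lower in YAPKO were also at least as abundant in B cells.

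Genes of other cell types were also lower in YAPKO. Of the EC genes outside the rule 8 of 15 were tested and 6 were lower, with a sum of 255 CPM in WT, 113 in YAPKO, 181 in TAZKO and 227 in DKO and Igfbp7 as the most abundant in WT (66.9 CPM). Of 9 HSC genes 5 were tested and 4 were lower, with sums of 273, 105, 334 and 198 CPM. All 3 erythroid genes tested were lower, with sums of 225, 26.6, 38.7 and 17.8 CPM, led by Hbb-bs. Of 3 neutrophil genes tested 2 were lower. In WT such RNA lay in few KCs: after thinning, S100a9 had 238 UMIs in 14 cells, 108 of them in 1 cell. S100a8 had 221 in 13 cells, 94 of them in 1 cell. Of all calls, 2 higher and 28 lower genes belonged to the lists of other cells, and their part was not tested.

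Lists of KC functions held few calls in YAPKO, as did all genes (0.54% higher, 2.08% lower), so an empty list of 8 to 21 genes is no result. None of the 21 identity genes, 13 complement genes, 14 iron and heme genes, 18 tested cholesterol and LXR genes, 15 lysosome genes, 10 MHC class II genes or 8 MHC class I genes passed 2-fold, with medians of -0.04, 0.10, 0.16, 0.06, 0.10, 0.03 and -0.13. Among 17 scavenger and efferocytosis receptors 1 was higher, Cd93, at 4.93 CPM in WT, 11.6 in YAPKO, 2.89 in TAZKO and 11.9 in DKO. Apoe, which carries lipid in lipoproteins, stood at 16407 CPM in WT, 24274 in YAPKO, 12686 in TAZKO and 31914 in DKO, short of 2-fold. Of 24 interferon-stimulated genes 1 was lower, Cxcl9, a chemokine induced by interferon gamma, at 36.4 CPM in WT, 6.28 in YAPKO, 17 in TAZKO and 65.9 in DKO. Of 17 chemokine and cytokine genes 2 were higher, Ccl7 (7.99 CPM in WT, 18.2 in YAPKO, 1.53 in TAZKO and 7.18 in DKO) and Cxcl2 (5.1 CPM in WT, 16 in YAPKO, 10.5 in TAZKO and 14.1 in DKO), which recruit monocytes and neutrophils, and 2 were lower, Cxcl13 (249.8 CPM in WT, 123 in YAPKO, 162 in TAZKO and 29.3 in DKO) and Il1b (343 CPM in WT, 140.0 in YAPKO, 209.8 in TAZKO and 237 in DKO). Among 20 immediate early and stress genes 3 were lower: Hspa1a, Hspa1b and Egr1 (78.2 CPM in WT, 16.7 in YAPKO, 56.7 in TAZKO and 95.7 in DKO), or 1 without genes as abundant in B cells. Under median-of-ratios scaling 3 of the chemokine and cytokine genes were higher and 1 lower. Single genes of inflammation thus moved in both directions.

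The pair of DKO and TAZKO also differs in Yap1, on a TAZ-deficient background, and shares no library with the pair of YAPKO and WT. The 6 genes named by their intervals as higher in both pairs were Gpnmb, Mmp12, Cd63 and Trem2 of the lipid-associated list and, outside it, Ms4a7 and Bcl2a1d, and the HC genes Mup3, Mup1 and Fgg were among those named as lower. In both pairs 30 genes (0.344%) were higher and 74 (0.85%) lower. The 30 are 63.8% of the genes higher in YAPKO and 9.55% of those higher in DKO against TAZKO, and the 74 are 40.9% and 11.3% of the genes lower. Only 5 genes were called in opposite directions.

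**Figure D3:**
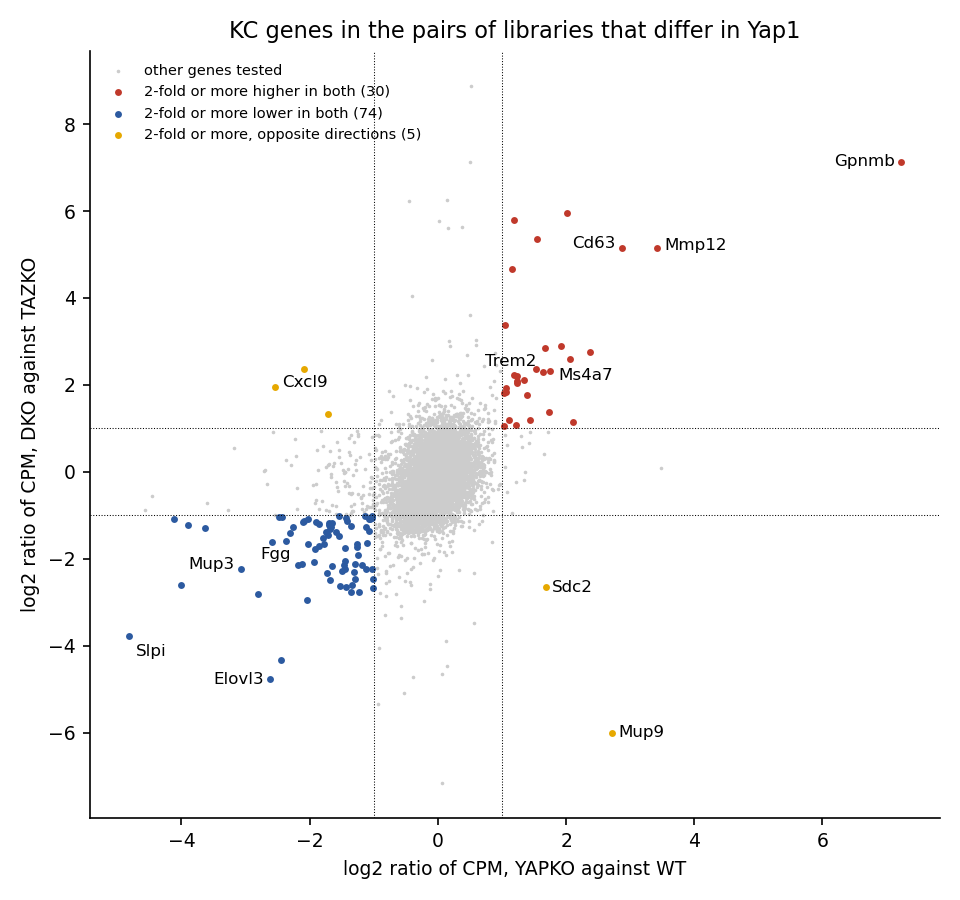
Log2 ratio of YAPKO to WT against that of DKO to TAZKO for 8709 genes in KCs, 1 point a gene, with dashed lines at 2-fold. Of the genes past 2-fold in both pairs, 30 were higher in both (red), 74 lower in both (blue) and 5 opposite (yellow), and Gpnmb, Mmp12 and Cd63 lie farthest out among the higher.

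In DKO against TAZKO the log2 ratio was 5.15 (4.78 to 5.54) for Mmp12, 5.16 (4.68 to 5.68) for Cd63, 2.30 (2.04 to 2.56) for Trem2 and 2.32 (2.06 to 2.58) for Ms4a7. Gpnmb reached 7.13 (5.27 to 10.18), resting on 2 UMIs in TAZKO and 351 in DKO. Bcl2a1d, which encodes a BCL2-like inhibitor of apoptosis, stood at 3.74 CPM in WT, 15.6 in YAPKO, 6.79 in TAZKO and 41.1 in DKO. In DKO and YAPKO these genes were thus high and in WT and TAZKO low. For Bcl2a1d this was not confined to KCs. In B cells it stood at 12 CPM in WT, 22.5 in YAPKO, 8.8 in TAZKO and 25.7 in DKO. These levels were above those of KCs in WT, YAPKO and TAZKO. Fabp5, a fatty acid binding protein, stood at 38.9 CPM in WT, 76.5 in YAPKO, 29.4 in TAZKO and 147 in DKO, and Cd9, a tetraspanin, at 19.7 CPM in WT, 29.9 in YAPKO, 10.2 in TAZKO and 83.7 in DKO, both past 2-fold in DKO but not in YAPKO. Lgals3, the lectin galectin-3, stood at 797 CPM in WT, 1108 in YAPKO, 633 in TAZKO and 1091 in DKO and passed 2-fold in neither pair. Of the 7 tested lipid-associated genes 6 were higher in DKO against TAZKO, with a median of 3.04, and 4 in both pairs. Their sum was 907 CPM in WT, 1532 in YAPKO, 718 in TAZKO and 2112 in DKO, most of it Lgals3. With KC genes at 1.6% the median for DKO against TAZKO was 2.50 over 6 genes tested, and with cells thinned to 2000 UMIs 2.31 over 5.

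**Figure D4:**
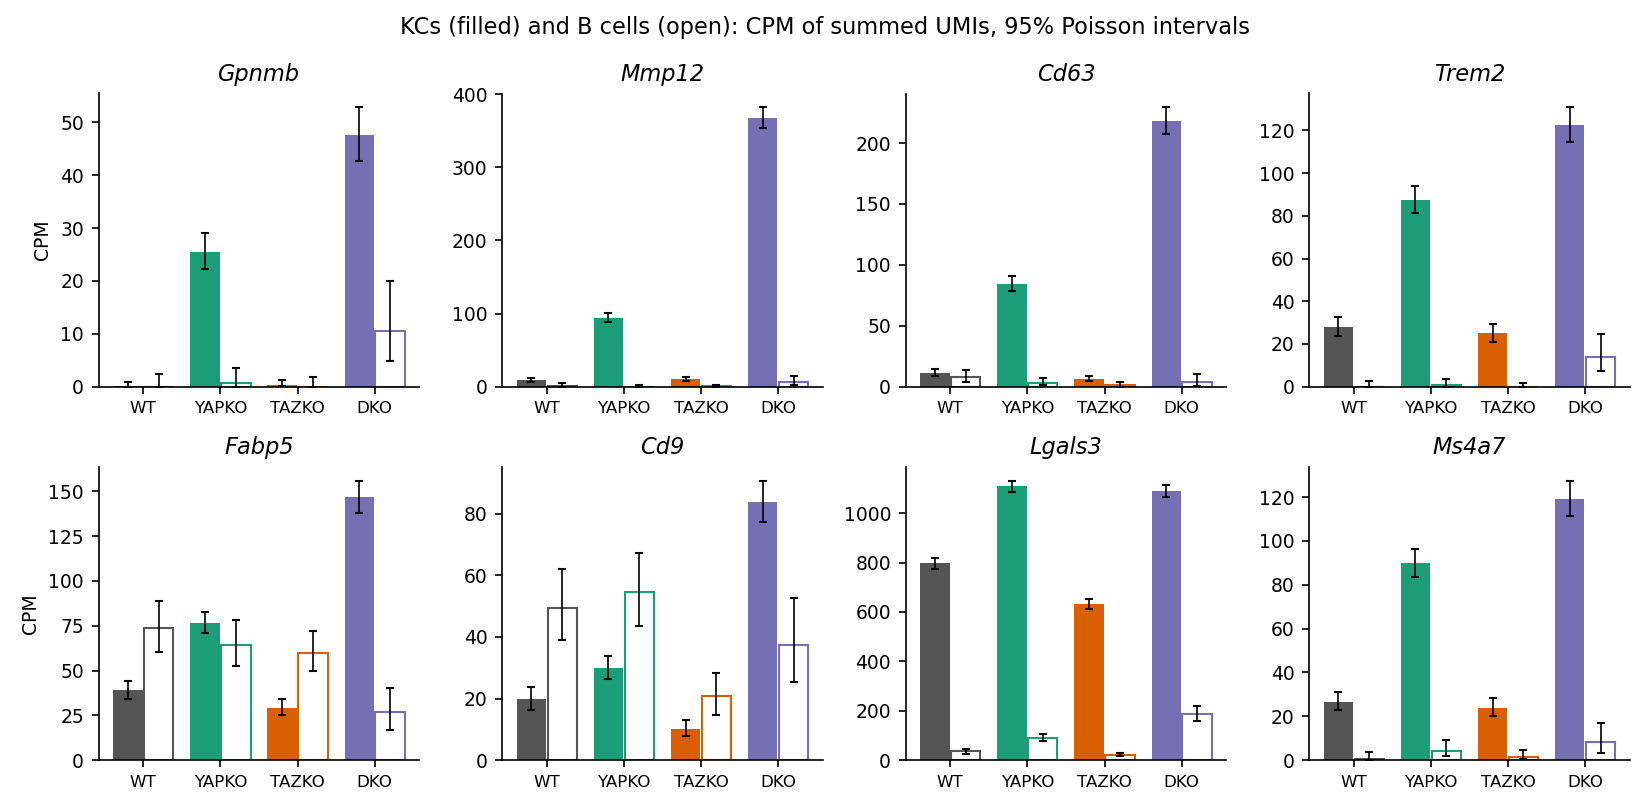
CPM of 8 genes in KCs (filled) and B cells (open) of each library, with exact Poisson 95% intervals. In KCs the genes are highest in DKO or YAPKO, as Mmp12 at 8.84, 94.4, 10.4 and 368 CPM in WT, YAPKO, TAZKO and DKO, while in B cells Mmp12 stays at or under 7 CPM. Other kept cells, not drawn, also had more Mmp12 in YAPKO (11.9 CPM) and DKO (16.8) than in WT (1.59).

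The leading genes were detected in a minority of the KCs of each library. Detection depends on depth and sets no limit on the share of KCs that make them. Mmp12 was detected in 2.49% of KCs in WT, 10.1% in YAPKO, 1.13% in TAZKO and 24% in DKO, and after thinning to 2000 UMIs in 0.942%, 5.46%, 1.00% and 17.5%, against 0.236%, 0%, 0.175% and 0.952% of unthinned B cells. Cd63 was detected in 8.72%, 27.9%, 1.98% and 44.9%, thinned 2.64%, 10.0%, 0.334% and 24.4%, against 0.946%, 0.909%, 0.349% and 0.317% of B cells. Trem2 was detected in 17.3%, 32.3%, 10.5% and 45.3%, thinned 5.65%, 12.8%, 4.35% and 17.1%, against 0%, 0.227%, 0% and 0.952% of B cells. Thinning kept the order of the libraries for these genes, except that TAZKO and WT were close for Mmp12. Gpnmb was detected in 1 of 562 KCs in WT, 8 of 563 in YAPKO, 2 of 1058 in TAZKO and 89 of 739 in DKO, after thinning in 0 of 531 (at most 0.692%), 6 of 549, 1 of 897 and 31 of 709, and in 0, 1, 0 and 2 B cells. In YAPKO the 223 UMIs of Gpnmb thus came from 8 cells. Median depths were 10386.5, 16485, 5141 and 9877 UMIs for KCs and 2938, 2883, 2842 and 2150.0 for B cells, and thinning left out 31, 14, 161 and 30 KCs and 18, 25, 48 and 101 B cells.

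KCs with at least 2 of Gpnmb, Mmp12 and Cd63 numbered 5 in WT (0.890%), 43 in YAPKO (7.64%), 2 in TAZKO (0.189%) and 164 in DKO (22.2%), a set of genes chosen after their values were seen. The counts used all UMIs of a cell and so depend on depth, which was highest in YAPKO and lowest in TAZKO. In DKO and YAPKO these cells also had more Trem2 and Fabp5, while in WT and TAZKO they were too few to compare. In DKO they carried Trem2 at 259 CPM against 75.8 in the other KCs and Fabp5 at 408 against 57.5, and in YAPKO Trem2 at 378 against 60.4 and Fabp5 at 522 against 34.8. Cd163 stood in DKO at 121 against 366 CPM and in YAPKO at 342 against 741. As a description of rule genes, Clec4f stood in DKO at 3616 against 4853 CPM and Timd4 at 205 against 381. The KC genes of the rule together held a median of 2.184% against 2.725% of UMIs in YAPKO and 1.6% against 2.214% in DKO. In the other KCs Trem2 stood at 26.9 CPM in WT, 60.4 in YAPKO, 25 in TAZKO and 75.8 in DKO, so the order of the libraries was the same without these cells.

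Like groups of cells carried the genes too. In dividing KCs Mmp12 stood at 2.66 CPM in WT, 51.2 in YAPKO, 0 in TAZKO and 44.3 in DKO, and in KCs with EC RNA at 17.3, 5.89, 2.72 and 89.2. In the 444 monocyte-gene cells (Ly6c2, Ccr2, Chil3 and F13a1 at 0.3% or more, KC genes under 0.2%) Mmp12 was at 0 in all 4 libraries. Trem2 in monocyte-gene cells stood at 34.1, 27.3, 8.45 and 29.7 CPM, no higher in YAPKO or DKO than in WT. High levels of Mmp12 in both YAPKO and DKO were thus seen in KCs, dividing or not, while KCs with EC RNA were high in DKO alone. Few cells stand behind the levels in like groups: 73 dividing KCs in YAPKO and 28 in DKO, and 112 and 158 KCs with EC RNA. How Mmp12 was spread over the cells of these groups was not tested. In all kept cells outside the KCs of the rule, among them dividing KCs and KCs with EC RNA, Mmp12 stood at 1.59 CPM in WT, 11.9 in YAPKO, 2.43 in TAZKO and 16.8 in DKO, Cd63 at 42.8, 97.4, 16.3 and 71.8, Trem2 at 5.18, 50.9, 4.83 and 14.4 and Gpnmb at 0.0430, 25.03, 6.28 and 7.29. The rise in YAPKO was thus also present outside the KCs of the rule, where Gpnmb in YAPKO was as abundant as in KCs, and which cells carried it was not tested.

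As members that moved together, the promoters of Gpnmb (ENSMUSG00000029816), Mmp12 (ENSMUSG00000049723), Cd63 (ENSMUSG00000025351) and Trem2 (ENSMUSG00000023992) are shown, from 250 bases before to 50 after the RefSeq start, 5′ to 3′ on the gene's strand. Capitals mark TGACTCA or its complement, the letters of the AP-1 site, and GAGGAA or its complement, the core letters of PU.1, the macrophage factor, searched on both strands. Of 32851 promoters of the same length 5.2% hold TGACTCA and 28.3% hold GAGGAA. Windows lie in GRCm38.p6 on the plus strand, Gpnmb at chr6:49036268-49036567, Trem2 at chr17:48346151-48346450, Cd63 at chr10:128909095-128909394, and Mmp12 at chr9:7344147-7344446 (entry 1) and chr9:7347124-7347423 (entry 2).
Gpnmb: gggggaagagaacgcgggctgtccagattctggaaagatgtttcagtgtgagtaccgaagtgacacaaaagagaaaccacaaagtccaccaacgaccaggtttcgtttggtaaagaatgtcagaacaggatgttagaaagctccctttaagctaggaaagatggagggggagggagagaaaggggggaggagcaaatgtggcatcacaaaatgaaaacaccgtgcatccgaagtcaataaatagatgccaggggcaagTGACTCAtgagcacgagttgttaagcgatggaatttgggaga
Trem2: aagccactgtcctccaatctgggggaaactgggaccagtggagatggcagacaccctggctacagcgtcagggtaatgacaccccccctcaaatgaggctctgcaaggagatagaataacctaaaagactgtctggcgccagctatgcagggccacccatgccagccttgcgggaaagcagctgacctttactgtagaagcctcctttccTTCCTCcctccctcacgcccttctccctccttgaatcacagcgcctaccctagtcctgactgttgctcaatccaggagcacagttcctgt
Cd63: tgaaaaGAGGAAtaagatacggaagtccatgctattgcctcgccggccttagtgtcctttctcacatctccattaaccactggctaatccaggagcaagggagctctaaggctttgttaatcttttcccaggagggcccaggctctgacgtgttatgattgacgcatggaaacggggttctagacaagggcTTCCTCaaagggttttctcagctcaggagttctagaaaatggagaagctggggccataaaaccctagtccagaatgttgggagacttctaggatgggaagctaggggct
Mmp12 entry 1: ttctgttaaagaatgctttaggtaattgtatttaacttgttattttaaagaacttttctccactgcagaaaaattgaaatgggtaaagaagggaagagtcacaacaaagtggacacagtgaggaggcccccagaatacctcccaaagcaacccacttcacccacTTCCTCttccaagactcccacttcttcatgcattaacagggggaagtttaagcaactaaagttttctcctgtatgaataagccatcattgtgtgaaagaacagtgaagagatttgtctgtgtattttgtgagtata
Mmp12 entry 2: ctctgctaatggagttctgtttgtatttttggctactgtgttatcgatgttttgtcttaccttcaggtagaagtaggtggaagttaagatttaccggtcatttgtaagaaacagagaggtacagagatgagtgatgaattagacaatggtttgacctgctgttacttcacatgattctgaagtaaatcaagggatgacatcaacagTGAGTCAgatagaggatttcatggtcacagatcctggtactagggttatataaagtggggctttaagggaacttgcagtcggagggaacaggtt
The windows of Gpnmb and Mmp12 entry 2 hold 1 TGACTCA each, those of Trem2 and Mmp12 entry 1 hold 1 GAGGAA and that of Cd63 holds 2. A match describes the letters and says nothing of binding.

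Among the genes lower in both pairs, Slpi, Mup3, Mup1, Fgg, Elovl3 and Mir6236 were named by their intervals. Mup3 stood at 776 CPM in WT, 92.5 in YAPKO, 639 in TAZKO and 137 in DKO, and Fgg, the gamma chain of fibrinogen, at 130.2 CPM in WT, 28.5 in YAPKO, 96.7 in TAZKO and 21.8 in DKO. Elovl3, a fatty acid elongase, stood at 12.6 CPM in WT, 2.06 in YAPKO, 26 in TAZKO and 0.949 in DKO and Mup1 at 15.1 CPM in WT, 2.17 in YAPKO, 15.1 in TAZKO and 2.17 in DKO. These 4 are genes of HCs, and in B cells Fgg stood at 436 CPM in WT, 87 in YAPKO, 243 in TAZKO and 75.8 in DKO, in the same order. Mir6236, a locus annotated as a microRNA, stood at 2941 CPM in WT, 939 in YAPKO, 3642 in TAZKO and 808 in DKO and in B cells at 5603 CPM in WT, 2436 in YAPKO, 6660.3 in TAZKO and 1774 in DKO. With KC genes at 1.6%, or without the cells of highest doublet score, Slpi no longer differed between DKO and TAZKO (-0.04). Of the genes that differed alike in both pairs, 1 higher and 8 lower belong to the lists of other cells. With genes left out whose level in B cells reached that in KCs, 18 genes were higher and 18 lower in both pairs, so the lower genes were mostly ones shared with B cells.

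The comparison of TAZKO with WT shows how KCs differed in a liver whose HCs and BECs lacked TAZ. Ifi44l, the pseudogene Gm4759, the calcium channel gene Cacna1a, the HC gene Cyp2c50 and Ifi44 came first by their intervals among the genes that were higher, and a set of pseudogenes and the metalloprotease gene Adamdec1 led those that were lower. Lipid-associated genes did not pass 2-fold as scaled to all UMIs. Of 8709 genes, 474 (5.44%) were higher and 247 (2.84%) lower, 154 and 114 with the interval wholly past 2-fold. The direction of this balance depended on scaling: 65.7% of calls were higher as scaled to all UMIs and 30.8% under median-of-ratios size factors, which give 216 higher and 485 lower. With ratios centred by group of transcript length 245 were higher and 281 lower. Median-of-ratios scaling shifts all genes of a comparison alike, and the all-gene median under it was 0.02.

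Ifi44l had 0 UMIs in WT, YAPKO and DKO and 218 CPM in TAZKO, which against the floor of 3 counts is a log2 ratio of at least 8.74 to WT, and it was detected in 57.2% of TAZKO KCs (36.2% thinned) and 1.92% of B cells. Its neighbour on chromosome 3, Ifi44, stood at 41.8 CPM (36.7 to 47.4) in WT, 45.6 (41.2 to 50.2) in YAPKO, 519.5 (501 to 538) in TAZKO and 35.1 (31 to 39.6) in DKO, a ratio of 3.64 (3.45 to 3.83). Both genes were high in TAZKO alone. Ifi44l was also at 0 in all other kept cells of WT, YAPKO and DKO, so its absence there was not confined to KCs, and whether expression, sequence or how reads were assigned differed was not tested. Cacna1a, which encodes the pore of a voltage-gated calcium channel, stood at 1.87 CPM (0.933 to 3.34) in WT, 1.26 (0.627 to 2.25) in YAPKO, 57 (51.1 to 63.5) in TAZKO and 52.3 (47.2 to 57.8) in DKO, high in TAZKO and DKO, and was detected in 1.78%, 1.78%, 24.4% and 37.1% of KCs (thinned 0%, 0.182%, 10.8% and 9.31%) and in 1.65%, 1.36%, 1.40% and 1.27% of B cells. The unprocessed pseudogene Gm4759 stood at 0.850 CPM in WT, 1.26 in YAPKO, 49.1 in TAZKO and 32 in DKO in KCs and at 148 CPM in WT, 169.7 in YAPKO, 136 in TAZKO and 131 in DKO in B cells, so its libraries differed in KCs and not in B cells. Cyp2c50, a cytochrome P450 gene of HCs, stood at 0.850 CPM in WT, 1.26 in YAPKO, 28.5 in TAZKO and 2.57 in DKO, and in B cells of TAZKO at 93.7 CPM. Mup9 was also named as higher, with a ratio of 4.03.

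Lower in TAZKO were the pseudogenes Gm8420 (256 CPM in WT, 367 in YAPKO, 0 in TAZKO and 241 in DKO), Gm11942 (46 CPM in WT, 50.7 in YAPKO, 0 in TAZKO and 39 in DKO) and Gm14094 (79.9 CPM in WT, 113 in YAPKO, 0.679 in TAZKO and 95.1 in DKO). Gm8420 was also near 0 in B cells of TAZKO alone, at 753 CPM in WT, 889.8 in YAPKO, 0.517 in TAZKO and 639 in DKO. AA465934 stood at 37.2 CPM in WT, 27.2 in YAPKO, 0.509 in TAZKO and 38.5 in DKO. Adamdec1, which encodes a secreted metalloprotease of macrophages and dendritic cells, stood at 68.8 CPM (62.3 to 75.9) in WT, 69.98 (64.6 to 75.8) in YAPKO, 1.36 (0.586 to 2.68) in TAZKO and 74.1 (68 to 80.6) in DKO, a ratio of -5.66 (-6.88 to -4.67). These genes were near 0 in TAZKO and alike in the other 3 libraries. Mup11 had a ratio of -7.55 (-8.87 to -6.51).

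The KC lists of TAZKO are read against the all-gene median of 0.26 and against 5.44% higher and 2.84% lower of all genes. A single call in a list of this size is no result about the list. Of 18 tested cholesterol and LXR genes 2 were higher, with a median of 0.62, among them Hmgcs1, an enzyme of cholesterol synthesis (24.3 CPM in WT, 22.1 in YAPKO, 53.3 in TAZKO and 27.6 in DKO). With ratios centred by transcript length 1 gene was higher and the median was 0.17. Of 14 iron and heme genes 1 was higher, Tfrc, the transferrin receptor (12.2 CPM in WT, 13.8 in YAPKO, 31.7 in TAZKO and 10.3 in DKO), and 2 were lower, Ftl1, the ferritin light chain (10198 CPM in WT, 13028 in YAPKO, 4009 in TAZKO and 10175 in DKO), and Blvrb, biliverdin reductase B (949 CPM in WT, 1030.2 in YAPKO, 451 in TAZKO and 924 in DKO). The list median was -0.03, and with ratios centred by length 0 iron genes were higher and 1 lower, against 1 and 2 under median-of-ratios scaling. Of 13 complement genes C3 was higher (34.5 CPM in WT, 29.1 in YAPKO, 119.8 in TAZKO and 63.3 in DKO) and C1qb lower (6843 CPM in WT, 7829 in YAPKO, 3223 in TAZKO and 7089.6 in DKO), while C1qa of the rule passed 2-fold in no comparison. No complement gene was lower with ratios centred by length, and with genes left out whose level in B cells reached that in KCs none was higher. Among the 21 identity genes 1 was higher, Nr1h3, and 1 lower, Id1 (157 CPM in WT, 147 in YAPKO, 66 in TAZKO and 100.3 in DKO), with a median of 0.26. With ratios centred by length 1 was higher and 2 lower, and under median-of-ratios scaling 0 were higher and 2 lower.

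Of the 24 interferon-stimulated genes tested 2 were higher and 3 lower in TAZKO, against 5.44% and 2.84% of all genes. The same shares apply to the lists that follow. The median of the interferon-stimulated genes was 0.03 and became -0.21 under median-of-ratios scaling. Ifi44 was higher, while Isg15, a ubiquitin-like modifier, stood at 176 CPM in WT, 167 in YAPKO, 51.8 in TAZKO and 86.6 in DKO and Bst2, the tether of budding viruses, at 1029 CPM in WT, 1104 in YAPKO, 347 in TAZKO and 578 in DKO, both lower. The list thus held no common direction. Of 10 MHC class II genes 1 was higher, Cd40 (13.8 CPM in WT, 17.4 in YAPKO, 28.5 in TAZKO and 5.96 in DKO), which stimulates antigen-presenting cells (0 with ratios centred by length), with a median of -0.30, and the most abundant included H2-Ab1 at 2174 CPM in WT, 2168 in YAPKO, 1359 in TAZKO and 2796 in DKO. Of 17 scavenger receptors 1 was lower, Cd36 (67.1 CPM in WT, 110.2 in YAPKO, 21 in TAZKO and 113 in DKO), with a median of 0.12 that turned to -0.11 under median-of-ratios scaling, and with ratios centred by length 2 were lower. Of 17 chemokine and cytokine genes 2 were higher and 4 lower, among them Ccl24, an attractant of eosinophils, at 465 CPM in WT, 479 in YAPKO, 1465 in TAZKO and 309 in DKO. Immediate early and stress genes had 3 of 20 higher, with Fosb at 17.5 CPM in WT, 19.3 in YAPKO, 50.2 in TAZKO and 82.1 in DKO and Klf4 at 31.6 CPM in WT, 38.1 in YAPKO, 109.6 in TAZKO and 59.6 in DKO, and 1 lower, with a median of 0.23 that was -0.01 under median-of-ratios scaling, and with ratios centred by length 5 were higher. Without genes as abundant in B cells 0 of this list were lower. No lysosome gene and no lipid-associated gene was called, with medians of 0.00 and -0.33. With ratios centred by length 1 lipid-associated gene was lower, and under median-of-ratios scaling 2 were. Of the calls in TAZKO 6 higher and 10 lower genes belong to the lists of other cells.

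The comparison of DKO with WT shows how KCs differed where both coactivators were deleted in the epithelium, and shares WT with the comparisons of YAPKO and TAZKO. Gpnmb, Mmp12 and Cd63 were higher, as in YAPKO, and Cacna1a and Gm4759 higher, as in TAZKO. Cd163 and 5 of 24 interferon-stimulated genes were lower. Of 8709 genes, 144 (1.65%) were higher and 125 (1.44%) lower, 67 and 76 with the interval wholly past 2-fold. The higher share of calls, 53.5%, was 49.8% under median-of-ratios scaling, 39.7% with KC genes at 1.6% and 41.3% without the cells of highest doublet score.

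Gpnmb had a log2 ratio of DKO to WT of 8.13 (5.64 to 13.44), Mmp12 of 5.38 (4.98 to 5.80) and Cd63 of 4.24 (3.89 to 4.61). Of the 7 lipid-associated genes 6 were higher, with a median of 2.13 against 0.03 over all genes. With cells thinned to 2000 UMIs the median was 1.83 over 5 genes tested. Thinned Gpnmb had 0 UMIs in WT and 45 in DKO, a ratio of at least 3.49 against the floor of 3 counts. Apoe was highest in DKO of all libraries, with a ratio of 0.96 (0.95 to 0.97), just short of 2-fold. Cacna1a had a ratio of 4.81 (3.95 to 5.82) and Gm4759 of 5.23 (3.99 to 6.87). Cib3, a calcium-binding protein gene, stood at 1.19 CPM in WT, 4.79 in YAPKO, 0 in TAZKO and 31.4 in DKO, and in B cells of DKO at 74.6 CPM. Without the cells of highest doublet score its ratio of 4.72 was 2.89.

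Lower in DKO were genes at or near 0 in that library. Trim5, of the TRIM family of antiviral factors, stood at 17.5 CPM in WT, 13.4 in YAPKO, 10.7 in TAZKO and 0 in DKO, a ratio of -5.43 or lower against the floor of 3 counts, and its relative Trim12a at 58.3 CPM in WT, 61 in YAPKO, 33.8 in TAZKO and 1.35 in DKO, both on chromosome 7. The unprocessed pseudogene Gm1966, on the same chromosome, stood at 165 CPM in WT, 173 in YAPKO, 77.4 in TAZKO and 0.542 in DKO. In the other 3 libraries these genes were all present. In B cells Trim5 stood at 50.8 CPM in WT, 61.4 in YAPKO, 31.6 in TAZKO and 0 in DKO, Trim12a at 159.8 CPM in WT, 188 in YAPKO, 91.1 in TAZKO and 3.5 in DKO and Gm1966 at 146 CPM in WT, 163 in YAPKO, 107 in TAZKO and 9.33 in DKO, so the low level in DKO was not confined to KCs, and whether it lies in expression, sequence or how reads were assigned was not tested. Mup17, with a level of 74.1 CPM in WT, 38.6 in YAPKO, 38.2 in TAZKO and 0.949 in DKO, and Mup11, with a ratio of -8.10, are HC genes, and Slpi had a ratio of -5.25.

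Of the 24 interferon-stimulated genes tested 0 were higher and 5 lower in DKO, against 1.65% and 1.44% of all genes, with a median of -0.50. Irf7, a transcription factor of the interferon response, stood at 638 CPM in WT, 782 in YAPKO, 633 in TAZKO and 298 in DKO, Mx1, an antiviral GTPase, at 19.4 CPM in WT, 20.8 in YAPKO, 17.7 in TAZKO and 8.27 in DKO, and Iigp1, an interferon-induced GTPase, at 133 CPM in WT, 88.5 in YAPKO, 191 in TAZKO and 66 in DKO. DKO was the lowest library for each of these. The list summed to 13296 CPM in WT, 13455 in YAPKO, 10928 in TAZKO and 8232 in DKO. Of 8 MHC class I genes 1 was lower, with a median of -0.35, and of 10 MHC class II genes 1 was higher, Ciita, which switches the class on (26.5 CPM in WT, 24.3 in YAPKO, 39.9 in TAZKO and 53.1 in DKO), and 1 lower, Cd40, with a median of 0.29 that was 0.10 with KC genes at 1.6%. No MHC class II gene was higher with ratios centred by length. H2-Eb1 stood at 1449.7 CPM in WT, 1482 in YAPKO, 903 in TAZKO and 2224 in DKO.

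Of all genes 1.65% were higher and 1.44% lower in DKO than WT, and a single call in the lists that follow is no result about the list. Among the 21 identity genes Cd163 alone was lower in DKO, with a median of -0.22. Of 13 complement genes 1 was higher and 2 lower, C4b among them (305 CPM in WT, 304 in YAPKO, 224 in TAZKO and 138 in DKO). Of 17 chemokine and cytokine genes 1 was higher, Cxcl2, and 1 lower, Cxcl13, which attracts B cells. Of the cholesterol and LXR genes 1 was higher, Pparg, a lipid-sensing nuclear receptor (6.8 CPM in WT, 12.2 in YAPKO, 11.2 in TAZKO and 14.6 in DKO). Of 20 immediate early and stress genes 2 were higher, Fosb and Jun (112 CPM in WT, 118 in YAPKO, 172 in TAZKO and 236 in DKO), and 4 lower, among them Klf2 (441 CPM in WT, 396 in YAPKO, 579 in TAZKO and 159 in DKO) and Dusp1 (440.2 CPM in WT, 296 in YAPKO, 502 in TAZKO and 209 in DKO). Members of this list thus went both ways, and without genes as abundant in B cells 1 was lower. No iron, heme or lysosome gene was called. Of the calls in DKO 5 higher and 10 lower genes belong to the lists of other cells, and of the monocyte genes Cx3cr1 was higher (35.5 CPM in WT, 40.2 in YAPKO, 10.4 in TAZKO and 83.3 in DKO) and Plac8 lower.

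The comparison of DKO with TAZKO shows how KCs differed where YAP was deleted in the epithelium along with TAZ. Lipid-associated genes were higher. Of 24 interferon-stimulated genes 8 were lower, or 4 with ratios centred by length or under median-of-ratios scaling. Ribosomal protein genes held a larger share of UMIs (11.9% against 8.30%). That share was 11% in WT and 11.6% in YAPKO, so TAZKO was the library that stood apart. Of 8709 genes, 314 (3.61%) were higher and 655 (7.52%) lower, 157 and 271 with the interval wholly past 2-fold. The share of calls that were higher was 32.4%, and 61.6% under median-of-ratios scaling, with 548 higher and 342 lower. With ratios centred by group of transcript length 334 were higher and 332 lower, so the balance of directions in this pair depended on how ratios were scaled or centred.

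Over all genes the median of DKO against TAZKO was -0.20, with 3.61% higher and 7.52% lower. Interferon-stimulated genes had 2 higher and 8 lower of 24 in this pair, with a median of -0.50. With ratios centred by length 2 were higher and 4 lower, and with cells thinned to 2000 UMIs the median was -0.19 against -0.21 over all genes, so a shift of the list as a whole was not seen in thinned cells. Ifi44l had a ratio of -9.07 or lower and Ifi44 of -3.89 (-4.08 to -3.70), while Rsad2, the antiviral viperin, stood at 89.5 CPM in WT, 78 in YAPKO, 169 in TAZKO and 50.8 in DKO and Ifit2 at 92.6 CPM in WT, 87.3 in YAPKO, 102 in TAZKO and 39.6 in DKO. MHC class II genes had 2 higher and 1 lower of 10 (1 and 1 with ratios centred by length), with a median of 0.53 that was 0.33 with KC genes at 1.6%. H2-Ab1 had a ratio of 1.04 (1.00 to 1.08). Apoe had a ratio of 1.33 (1.32 to 1.34) and was higher. KC identity genes had 1 higher and 4 lower of 21, with a median of -0.36, Cd163 at -1.30 (-1.37 to -1.22) among the lower, and with ratios centred by length 0 were higher and 1 lower. Scavenger receptors had 4 higher and 5 lower of 17, or 3 and 1 with ratios centred by length, with Cd36 at 2.43 (2.15 to 2.71). Iron genes had 3 higher and 1 lower, Ftl1 at 1.34 (1.32 to 1.36) among the higher, with a median of -0.04, and with ratios centred by length 1 was higher and 1 lower. Under median-of-ratios scaling 4 interferon-stimulated, 1 identity and 3 scavenger receptor genes were lower and 3 iron genes higher. Whether these were the genes called with ratios centred by length was not tested. The 4 higher and 14 lower calls in lists of other cells include 8 of the 18 HC genes as lower.

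**Figure D5:**
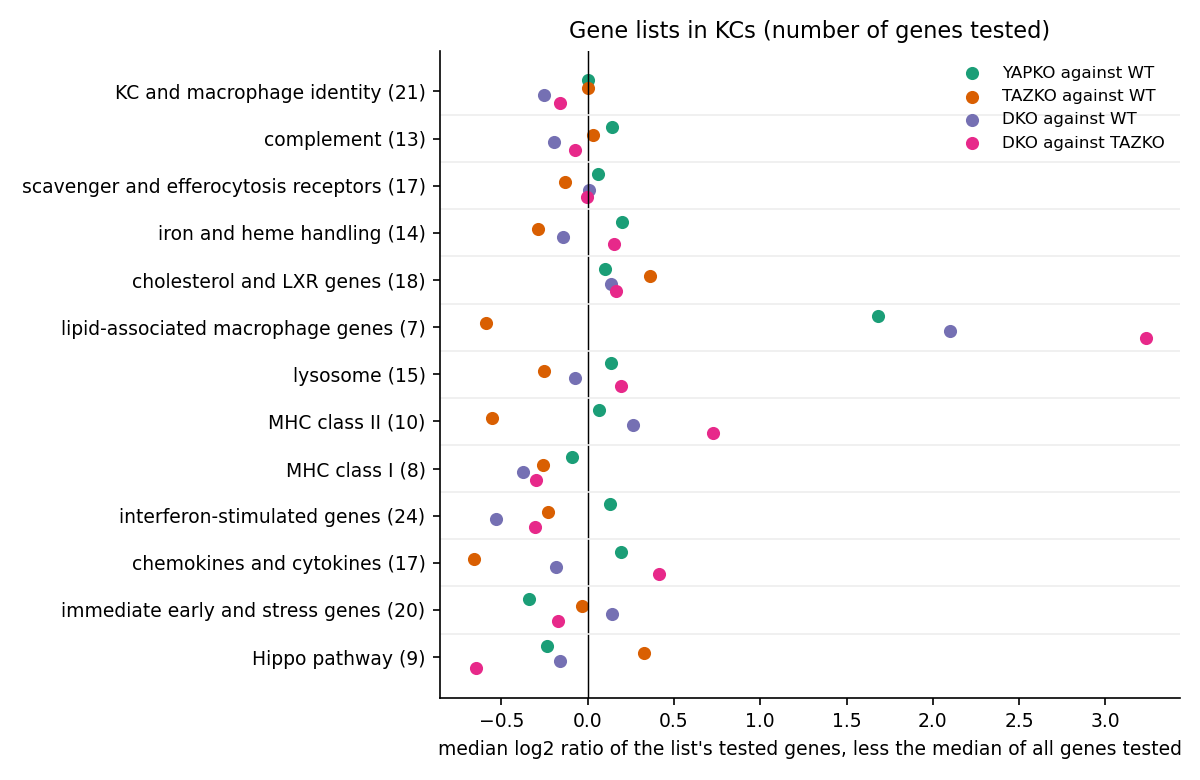
Median log2 ratio of each gene list less the median of all tested genes, in KCs, for 4 comparisons and the 13 lists with at least 5 tested genes. The lipid-associated list stands out to the right for DKO to TAZKO (median 3.04 against -0.20 over all genes), DKO to WT (2.13 against 0.03) and YAPKO to WT (1.64 against -0.04).

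Many Hippo pathway genes had too few UMIs in KCs to test. Of 19 genes 9 were tested, with 2 higher in TAZKO than WT, the kinase gene Lats2 (21.7 CPM in WT, 16.4 in YAPKO, 54.8 in TAZKO and 21.3 in DKO) and Mob1a, which activates that kinase (188 CPM in WT, 142 in YAPKO, 388 in TAZKO and 157 in DKO), and both lower in DKO than TAZKO, against 5.44% higher and 7.52% lower of all genes. No Hippo gene was called in either comparison with ratios centred by length, while under median-of-ratios scaling 1 was higher in TAZKO than WT and 2 lower in DKO than TAZKO. In YAPKO and DKO against WT none was called. Yap1 stood at 2.04 CPM in WT, 1.03 in YAPKO, 4.41 in TAZKO and 0.677 in DKO and Wwtr1 at 2.04 CPM in WT, 1.37 in YAPKO, 4.92 in TAZKO and 3.25 in DKO, too few UMIs to test, and say nothing on the deletion, which is directed to other cells. Of 4 bile acid receptor genes only S1pr2 was tested, at 11 CPM in WT, 8.22 in YAPKO, 20.2 in TAZKO and 13 in DKO, and Gpbar1 had 0 UMIs in every library.

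Some genes varied between the KCs of a library far more than most. Ranked by the lowest of the 4 ratios of variance to mean after thinning, which takes only genes variable in every library, the 20 leading genes were S100a9, Malat1, S100a8, CT010467.1, Apoe, Alb, Wfdc17, Fabp1, Mmp12, Hmox1, Marco, Cd74, Apoa2, Tmsb4x, Lyz2, Fth1, Apoa1, Mir6236, Apoc1 and Ttr. The all-gene medians were 1.01 in WT, 0.999 in YAPKO, 1.04 in TAZKO and 1.02 in DKO. Apoe reached 13.1, 20.1, 10.0 and 27.1, and Mmp12 5.27, 9.37, 13 and 7.9. Of the thinned Mmp12 UMIs 1 cell held 8 of 14 in WT, 23 of 100 in YAPKO, 20 of 33 in TAZKO and 29 of 488 in DKO. Marco, a gene of the rule, reached 7.67, 6.65, 5.11 and 6.38, and was detected in 45.0%, 53.6%, 23.1% and 37.4% of thinned KCs against 0.741%, 0.482%, 0.190% and 0.467% of thinned B cells. Alb, Fabp1, Apoa1, Apoa2 and Ttr are HC genes and S100a8 and S100a9 neutrophil genes, so RNA typical of other cells was unevenly spread over KCs. S100a9 had 238 thinned UMIs in 14 WT KCs, 108 of them in 1 cell.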

How the data were processed

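Single-cell RNA of 4 mouse liver libraries (WT, YAPKO, TAZKO, DKO, 1 mouse each) was read as UMI counts per gene and barcode, which the authors deposited after aligning reads to mm10 with Cell Ranger 6.0.1, per their notes (the matrix headers name an earlier version). KCs, like groups of cells and B cells were taken by UMI shares, and doublets were kept. Members and gene lists were chosen with earlier results of these data known. UMIs were summed over the KCs of a library and scaled to CPM. Exact Poisson intervals stand with levels, Clopper-Pearson intervals with shares and conditional binomial intervals with ratios, and the code was tested on simulated data. No test between groups was made. Genes named beyond the lists were the 6 in each direction past 2-fold whose interval ended farthest from 0, leaving out rule genes, other cells' lists, mt- and ribosomal protein genes. A count of 0 was set to the floor of 3 counts. Cells were thinned to 2000 UMIs, without replacement, for shares and variances. Alternatives were other scalings, filters, thinning, cell limits, and leaving out the top 8% of doublet scores (Scrublet in Scanpy 1.11.5). B-cell shares stand for free RNA, since no empty droplets were used. Promoter sequences are from RefSeq for GRCm38.p6, and all 4 genes shown had an entry. Python 3.11.15, NumPy 2.4.6, SciPy 1.17.1, pandas 2.3.3 and matplotlib 3.10.9 were used. The values of 1 gene of the lists are not reported here.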

Additional observations from a re-analysis of the deposited data

Results flagged for a closer look

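Most genes past 2-fold in both pairs that differ in Yap1 went the same way in each, and 3 of those that went opposite ways stand out. Mup9, a urinary protein gene of HCs, had a log2 ratio of 2.72 for YAPKO to WT and -6.01 for DKO to TAZKO, with 3.74 CPM in WT, 24.5 in YAPKO, 60.9 in TAZKO and 0.949 in DKO in KCs and 7.36 CPM in WT, 153 in YAPKO, 170.3 in TAZKO and 2.33 in DKO in B cells. Cxcl9, a chemokine induced by interferon gamma, had ratios of -2.53 and 1.96, with 36.4 CPM in WT, 6.28 in YAPKO, 17 in TAZKO and 65.9 in DKO. Sdc2, a cell surface proteoglycan, had ratios of 1.68 and -2.66, with 5.44 CPM in WT, 17.5 in YAPKO, 23.1 in TAZKO and 3.66 in DKO. With 1 library a group none of these differences was tested.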

How the results depend on the processing

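No ratio of a named gene, in the comparison it was named for, changed sign under the alternatives run for it. Signs of called genes that were not named were not compared. Of 120 counts of genes under the alternatives 82 stayed within 1.5 times, and of 550 ratios of named genes 477 stayed within their intervals. A count within that limit can hold other genes. Without the cells of highest doublet score, 107 genes were lower in both pairs, among them 47 of the 74. With KC genes at 1.6%, 80 were lower, among them 51 of the 74. Of the 30 genes higher in both pairs, 25 and 20 were still called in these settings. With thinned cells, where fewer genes were tested, 8 of the 30 and 17 of the 74 were still called. Of 552 list medians 17 had the other sign, none farther than 0.27 from 0 in either setting. Among them, chemokines and cytokines in DKO to TAZKO went from 0.22 to -0.27 with thinned cells, iron genes in that pair from -0.04 to 0.15 under median-of-ratios scaling, and cholesterol genes in YAPKO to WT from 0.06 to -0.11 with thinned cells. Medians with ratios centred by length are outside this tally, and some of them also turned. Interferon-stimulated genes in TAZKO to WT went from 0.03 to -0.20 and cholesterol genes in DKO to TAZKO from -0.03 to 0.24. Of 32 shares of KCs with a UMI 9 stayed within their intervals, since a share rises with the UMIs kept. The counts that moved were as follows, higher first. Under median-of-ratios scaling TAZKO to WT had 216 and 485 genes and DKO to TAZKO 548 and 342. With cells thinned to 2000 UMIs, which leaves 3980 genes to test, counts were 14 and 70 for YAPKO to WT, 231 and 150 for TAZKO to WT, 42 and 62 for DKO to WT, 192 and 401 for DKO to TAZKO, and 11 and 37 in both pairs. With at least 400 UMIs a gene (6884 tested) they were 26 and 95 for YAPKO, 83 and 82 for DKO to WT, and 18 and 39 in both pairs. With at least 100 UMIs (10217 tested) they were 85 and 342 for YAPKO, 268 and 192 for DKO to WT, and 138 lower in both pairs. These filters change the number of genes tested. With KC genes at 1.6% DKO to WT had 93 higher, and with EC genes under 0.1% both pairs had 48 lower, with fewer cells and fewer genes tested. In alternatives chosen after seeing the data, ratios centred by transcript length gave 245 higher for TAZKO to WT and 332 lower for DKO to TAZKO. Without genes as abundant in B cells there were 29 and 65 for YAPKO, 302 and 145 for TAZKO, 89 and 66 for DKO to WT, 201 higher for DKO to TAZKO, and 18 and 18 in both pairs. Where the construction does not show it, the cause was not tested. KCs with 500 to 6000 UMIs, in place of genes, numbered 192 in WT, 75 in YAPKO, 669 in TAZKO and 147 in DKO, and with EC genes under 0.1% TAZKO had 531.

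Depth limits what can be told. The median width of a log2 interval was 0.57 for YAPKO to WT and 0.60 for TAZKO to WT, so differences well below 2-fold are within counting error for many genes, before any difference between mice. TAZKO had the fewest UMIs a KC, and its ratios sloped with transcript length. RNA of HCs and other cells was present at levels that differed between libraries, and genes shared with B cells cannot be told apart from free RNA. Each genotype was 1 mouse, so genotype, animal and library cannot be told apart.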

Other observations

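Some genes of KCs outside the lists differed widely between libraries and were singled out after their values were seen. Cd207, the lectin langerin, stood at 46.2 CPM in WT, 37.7 in YAPKO, 277 in TAZKO and 546 in DKO, so TAZKO and DKO were both above WT and YAPKO. Ly6a, an interferon-inducible surface protein, stood at 1083 CPM in WT, 593 in YAPKO, 368 in TAZKO and 113 in DKO, lowest in DKO. Gatm, the first enzyme of creatine synthesis, stood at 1031 CPM in WT, 689 in YAPKO, 1431 in TAZKO and 169 in DKO, low in DKO alone. Lgals1, the lectin galectin-1, stood at 20.9 CPM in WT, 66.8 in YAPKO, 20.5 in TAZKO and 148 in DKO, and Capg, an actin-capping protein of macrophages, at 83.4 CPM in WT, 211 in YAPKO, 58.2 in TAZKO and 251 in DKO. Both were higher in YAPKO than WT and in DKO than TAZKO. In B cells Lgals1 stood at 99 CPM in WT, 111 in YAPKO, 127 in TAZKO and 80.5 in DKO and Capg at 346 CPM in WT, 362 in YAPKO, 249 in TAZKO and 260.0 in DKO, in other orders of the libraries.

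Cdkn2a, which encodes inhibitors of the cell cycle, stood at 7.99 CPM in WT, 18.2 in YAPKO, 0.340 in TAZKO and 18.7 in DKO, and Gdf15, a stress-induced cytokine, at 7.31 CPM in WT, 21.3 in YAPKO, 0.509 in TAZKO and 20.7 in DKO. In TAZKO these genes had 2 and 3 UMIs. In the other libraries they were present at low level, highest in YAPKO and DKO.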
